A study of Arabidopsis thaliana with 4 samples.

Results

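The genes described here are 50 nuclear genes of the photosynthetic apparatus of Arabidopsis thaliana, chosen by locus as the LHCA and LHCB antenna genes, the RBCS genes of Rubisco, nuclear subunits of photosystems I and II, and PETC, PETE1, PETE2, ATPC1 and ATPD. They are 50 of the 25665 loci that had a probe on the array, and 48 of them are among the 19314 genes that could be tested. PSAL and PSBY kept only 2 usable ratios each and were not tested. Each gene had 1 probe, except LHCA5 with 2, and all 50 names matched their locus tags in RefSeq (TAIR10.1). RNA came from whole seedlings of hsfb1 hsfb2b and of wild type, both Col-0. Both genotypes were 5 d old, had grown at 23 °C on sucrose medium in the same plates, and were put through 30 min at 32 °C before harvest, so every sample was heated. The mutated genes code for heat shock factors of class B, known as repressors of transcription, and the comparison asks which transcripts differ between the genotypes once both have been heated. The 4 arrays are biological replicates per the labels, each carrying mutant and wild type in different dyes, with the mutant in Cy3 (green) on replicates 1 and 3 and in Cy5 (red) on replicates 2 and 4. Allele names of the mutations were not given in the sources used here.

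In green plants, light is absorbed by chlorophyll proteins of the thylakoid membrane. LHCB proteins form the antenna of photosystem II and LHCA proteins that of photosystem I. Electrons pass from photosystem II, which splits water, through the cytochrome b6f complex and plastocyanin to photosystem I and ferredoxin, and the proton gradient drives ATP synthase. Rubisco, of which RBCS is the nuclear-encoded small subunit, fixes carbon dioxide in the Calvin cycle. These nuclear genes are light-induced, respond to signals from the plastid and give some of the most abundant messenger RNAs of green tissue.

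As a check of the labels, all 4 arrays showed the mutated genes as far lower in hsfb1 hsfb2b, with a log2 ratio of -5.79 ± 0.03 for HSFB1 (SE, n = 4 arrays, limma adjusted p = 2.15e-10) and of -4.68 ± 0.07 for HSFB2B (limma adjusted p = 1.71e-07). Per channel, 58.7% to 60.9% of spots exceeded background clearly, and none was saturated. All 48 tested photosynthesis genes were well above background in all 8 channels. The scanner read each array at a high and a low gain and scaled very bright spots up from the low-gain pass. This was so for 1.90% to 2.78% of all spot values per array, but for 90 to 92 of the 102 values of the photosynthesis probes, so these genes lie at the bright end of the array. Precision is limited by there being 4 arrays.

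In the fit that separated dye from genotype, 15 of the 48 tested genes were lower in the double mutant, 3 were higher and 30 did not pass the threshold (limma adjusted p under 0.05). Among all 19314 genes 29.8% passed, 13.1% as lower and 16.6% as higher, so the share lower among the photosynthesis genes was above the background and the share higher was below it. The median log2 ratio of mutant over wild type was -0.06 over the 48 genes, with a range of -0.30 to 0.41, against 0.00 over all genes. The genes that passed as lower were mostly antenna genes, 4 of LHCA and 7 of LHCB, with PSAG, PSBO1, PSBO2 and PSBR beside them, and the 3 higher ones were LHCB1.3, LHCB2.1 and LHCB2.2. No RBCS, plastocyanin, Rieske or ATP synthase gene passed. These RNAs came from whole seedlings, in which fewer green cells and less RNA per green cell cannot be told apart. The counts depended on how the arrays were normalized. They were 26 lower and 1 higher when ratios were only centred on each array's median, where 1388 of all 19314 genes were lower. In the scanner software's processed signals they were 2 lower and 0 higher, where 2506 of all 19314 genes were lower and 2561 higher. In the deposited series values taken as they were, they were 0 lower and 6 higher of 50 tested. Of all 19426 genes tested with these values, 1203 were lower and 4777 higher. There the median of the photosynthesis genes turned to 0.07, and the median of all genes was 0.07 as well. The counts were 3 lower and 2 higher in the deposited series values after centring, where 1524 of all 19426 genes were lower. With a narrower loess span of 0.05 they were 8 lower and 3 higher, where 2511 of all 19314 genes were lower. They were 0 in either direction with no dye term, where 584 of all genes were lower and 1242 higher. In that last limma fit 2 genes had an unadjusted p under 0.05. The share lower fell below that of all genes in the processed signals, in both forms of the series values and with no dye term. It was above that of all genes in the other alternatives. The median of the photosynthesis genes was -0.010 in the processed signals and -0.013 in the centred series values, where all genes had -0.016 and -0.018. In the alternatives other than these and the series values as deposited, it was below that of all genes. The gap was smallest with the narrower loess span (-0.016 against 0.001) and widest with median centring (-0.24 against -0.04). Without replicate 1, 6 genes were lower and 1 was higher of 40 tested, and without replicate 3 the counts were 3 and 0 of 34. Of the 18 genes that passed, only LHCB6 changed sign under any of the 17 alternatives run.

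**Figure D1:**
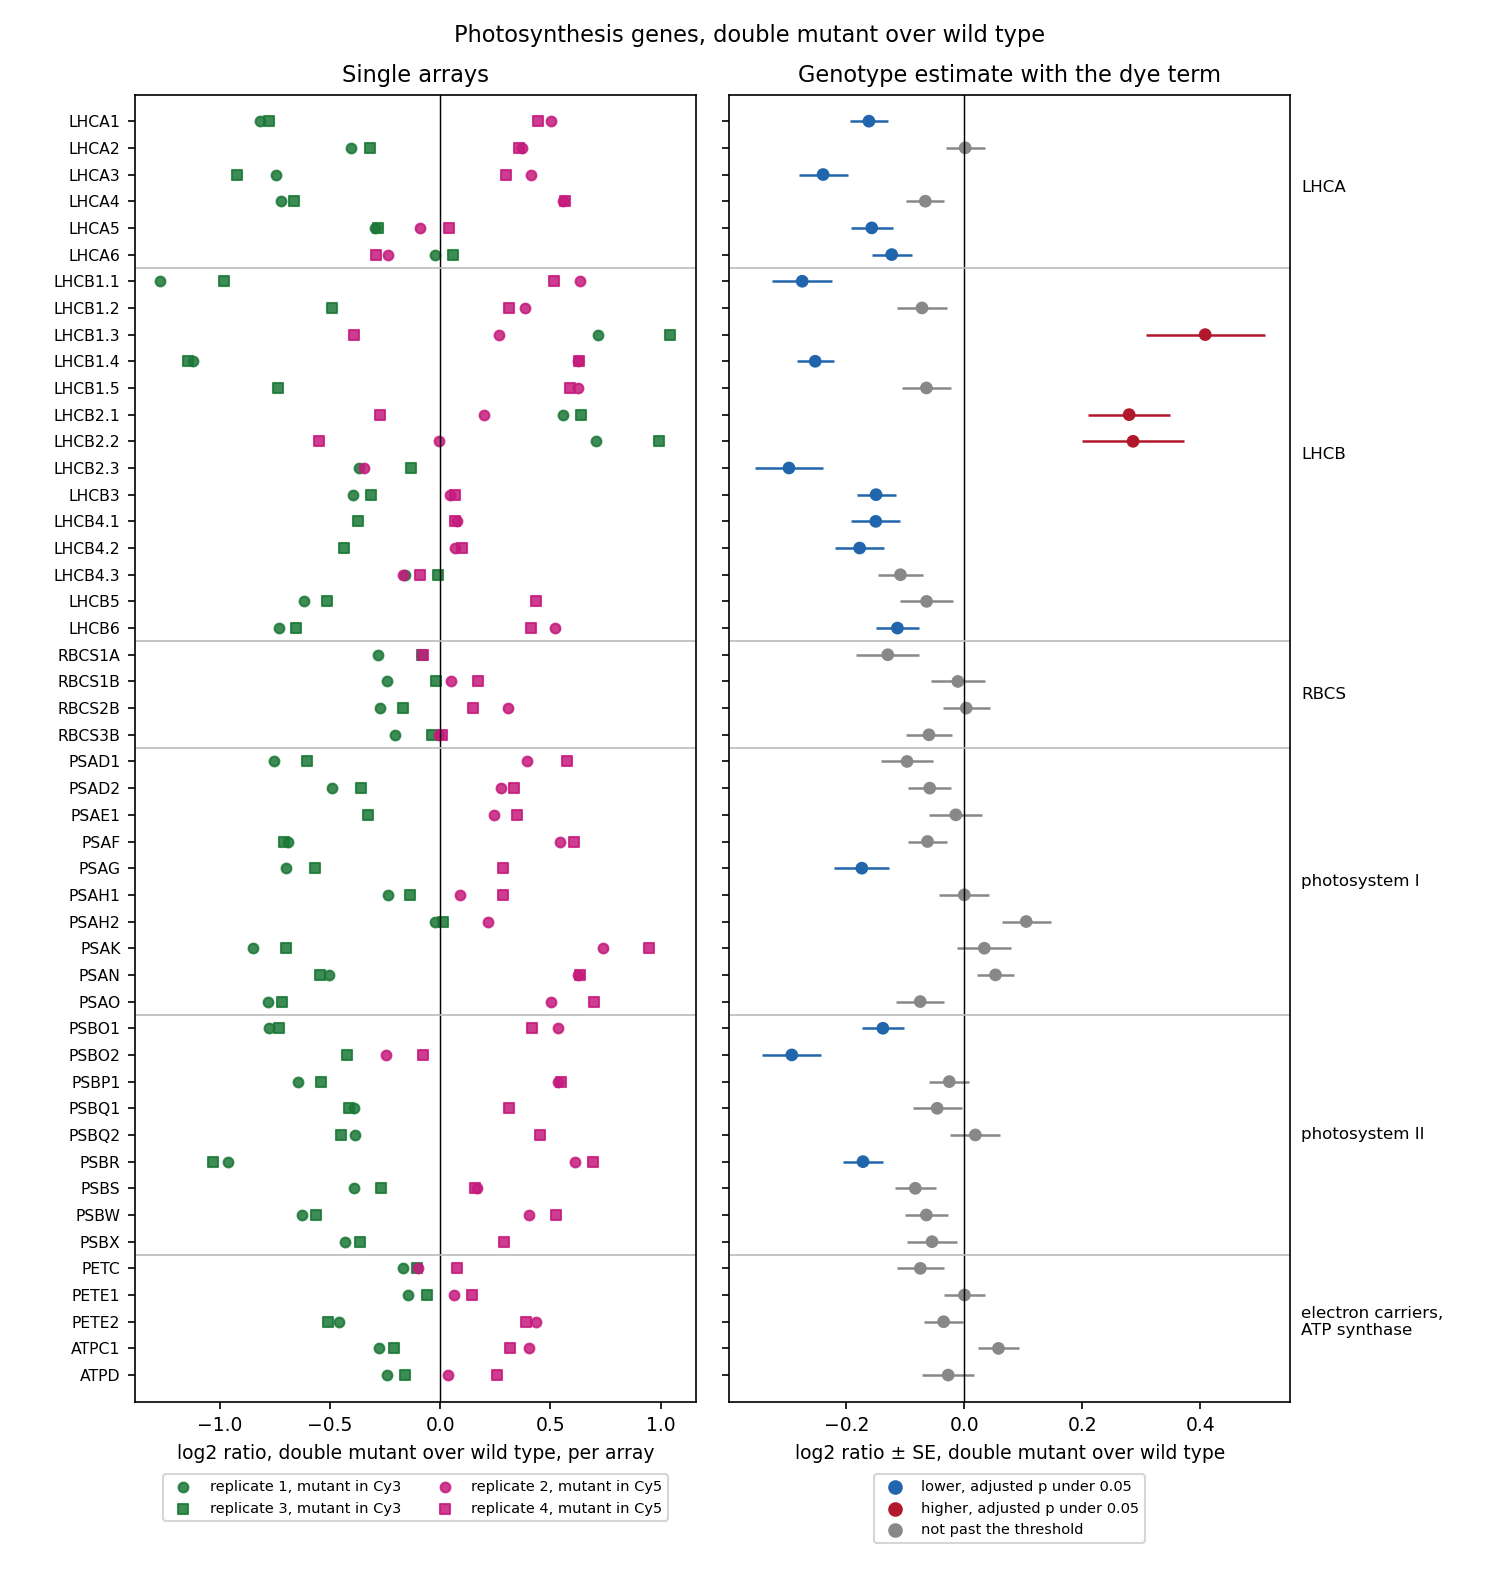
Log2 ratio of the double mutant over wild type for the 48 tested photosynthesis genes, per array on the left (green, mutant in Cy3; magenta, mutant in Cy5) and as the genotype estimate with its standard error on the right, on axes of different length. Most genes lie left of 0 on both green points and right of 0 on both magenta points, while the estimates span -0.30 to 0.41, and of the coloured estimates that of LHCB6 turned positive in 2 of the alternatives.

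The ratios of single arrays followed the dye far more than the genotype. With the mutant in Cy3 the photosynthesis genes had a median log2 ratio of -0.40 on replicate 1 and -0.39 on replicate 3, and with the mutant in Cy5 it was 0.29 on replicate 2 and 0.31 on replicate 4. The mutant thus read lower than wild type in one orientation and higher in the other. The normalization set the size of this split: the medians over the Cy3 and Cy5 arrays were -1.30 and 0.83 with median centring, -0.17 and 0.18 with the processed signals, and -0.17 and 0.13 with the loess span of 0.05. Of the 48 genes, 43 were negative on every measured Cy3 array, 37 were positive on every measured Cy5 array, and 36 were both, which is 75.0%. Among the other 19266 genes 15.2% had this pattern. LHCB2.2 showed the opposite one. Only RBCS1A, LHCB2.3, LHCB4.3 and PSBO2 had the same sign, negative, on every array that measured them (8.33% of the genes, against 35.8% of the others). Across the photosynthesis genes, ratios of replicates 1 and 3 correlated at 0.98 and those of replicates 2 and 4 at 0.81, while pairs of opposite orientation correlated at -0.60 to -0.87. These are descriptions over genes that share arrays and dyes, with no test.

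The dye effect of the fit is the log2 ratio of red over green that is left when the genotypes are balanced. It passed the threshold (limma adjusted p under 0.05) as positive for 35 of the 48 genes and as negative for 4, against 10.7% positive and 7.44% negative among all genes. Its median was 0.35, with a range of -0.56 to 0.88, against 0.01 over all genes. Under the alternatives that median ran from 0.14 with the loess span of 0.05 to 1.05 with median centring, and it was 0.15 with the processed signals and with the series values as deposited. For 42 of the 48 genes it was larger in size than the genotype ratio. The largest dye effects were 0.88 for LHCB1.4, 0.85 for LHCB1.1 and 0.82 for PSBR, and LHCB2.2 had the lowest, at -0.56. With the processed signals and with either form of the series values the same limma fit passed 0 dye effects of these genes. At an unadjusted p under 0.05 there were 31 with the processed signals, 34 with the series values as deposited and 31 after centring.

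**Figure D2:**
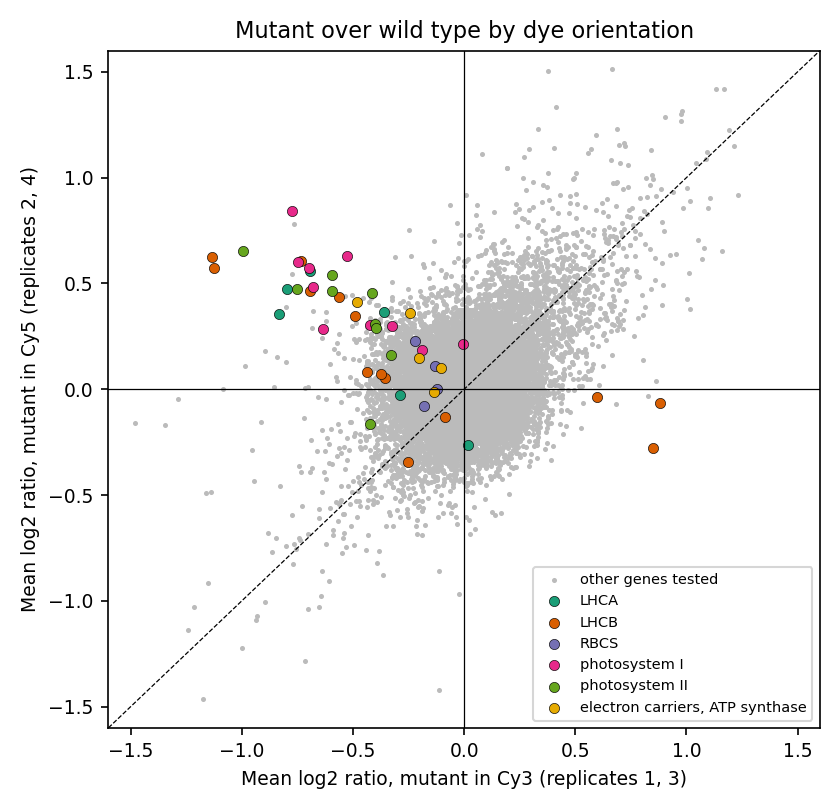
Mean log2 ratio of mutant over wild type for the Cy5 orientation of the mutant against the Cy3 orientation, for the photosynthesis genes (coloured) and the other genes tested (grey, with 12 beyond the axes at 1.6). Most photosynthesis genes are negative in Cy3 and positive in Cy5, while LHCB1.3, LHCB2.1, LHCB2.2 and, at 0.02, LHCA6 fall on the positive side for Cy3.

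The 14 LHCB genes included the largest differences in both directions. LHCB1, LHCB2 and LHCB3 proteins build the trimers of the main antenna of photosystem II, and LHCB4, LHCB5 and LHCB6 are monomeric antenna proteins between the trimers and the core. In all, 7 LHCB genes passed as lower and 3 as higher, and the median of the 14 was -0.11. The group's median was -0.40 over the Cy3 arrays and 0.08 over the Cy5 arrays. The counts of LHCB and of the groups below stand against 13.1% lower and 16.6% higher among all genes.

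LHCB1.4 (AT2G34430) had log2 ratios of -1.12 and -1.14 on the Cy3 arrays (replicates 1 and 3) and of 0.62 and 0.63 on the Cy5 arrays (replicates 2 and 4). The orientations did not overlap, and arrays of the same orientation lay close together. Its genotype ratio was -0.25 ± 0.03 (SE, n = 4 arrays, limma adjusted p = 0.00139), which is 1.19-fold lower. LHCB1.1 (AT1G29920) read -1.27 and -0.98 in Cy3 and 0.63 and 0.52 in Cy5, for a genotype ratio of -0.27 ± 0.05 (limma adjusted p = 0.00737), 1.21-fold lower. Before normalization its mutant signal on replicate 1 was 70857 units in green against 440858 for wild type in red, and on replicate 2 it was 400945 units in red against 114899 for wild type in green. Red was the brighter channel on both, as it was for the median spot of every array. The calls of LHCB1.1 and LHCB1.4 held in 15 of the 17 alternatives, more than for any other photosynthesis gene. LHCB2.3 (AT3G27690) was unlike them: it read -0.37 and -0.13 in Cy3 and -0.34 on replicate 2, with no ratio on replicate 4. All 3 values were below 0, and its genotype ratio was -0.30 ± 0.06 (limma adjusted p = 0.0117), 1.23-fold lower and the lowest of the 48.

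LHCB3 stood at -0.15 ± 0.03 (limma adjusted p = 0.0141), LHCB4.1 at -0.15 ± 0.04 (adjusted p = 0.0369), LHCB4.2 at -0.18 ± 0.04 (adjusted p = 0.0221) and LHCB6 at -0.11 ± 0.04 (adjusted p = 0.0498). LHCB4.1 and LHCB4.2 had 3 ratios each, with none on replicate 1. They read -0.37 and -0.44 on replicate 3 and between 0.07 and 0.10 in Cy5. Their calls held in 6 and 9 of the 14 alternatives that tested them. The call of LHCB6 held in 4 of 17 alternatives, and its ratio turned positive to 0.00087 in the processed signals and to 0.08 in the deposited series values. LHCB1.2, LHCB1.5 and LHCB5 lay between -0.07 and -0.06 and did not pass. LHCB4.3, less bright than most of the photosynthesis genes, was at -0.11 ± 0.04 (adjusted p = 0.0691) with all 4 arrays between -0.17 and -0.01.

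LHCB1.3, LHCB2.1 and LHCB2.2 went the other way, and are given array by array because of their values. LHCB1.3 (AT1G29930) read 0.72 and 1.04 in Cy3 and 0.27 and -0.39 in Cy5, with a genotype ratio of 0.41 ± 0.10 (SE, n = 4 arrays, limma adjusted p = 0.0211), 1.33-fold higher. LHCB2.1 (AT2G05100) read 0.56 and 0.64 in Cy3 and 0.20 and -0.27 in Cy5, for 0.28 ± 0.07 (limma adjusted p = 0.0217). LHCB2.2 (AT2G05070) read 0.71 and 0.99 in Cy3 and -0.01 and -0.55 in Cy5, for 0.29 ± 0.09 (limma adjusted p = 0.0416). In all of them the mutant read higher on both Cy3 arrays and lower on replicate 4, and their standard errors were the largest of the 48. Together with LHCB4.3 they were the only tested genes of the 48 with no value scaled up from the low-gain pass. Raw LHCB1.3 signals lay between 1955.5 and 4736 units over the 8 channels. Without replicate 3 none of the photosynthesis genes passed as higher, and in the processed signals none did either. LHCB1.2, LHCB1.1 and LHCB1.3 are direct neighbours in gene order and fell on both sides of 0. LHCB1.5 and LHCB1.4 are direct neighbours too, and both were below 0. The LHCB1 genes are close copies of each other, and so are LHCB2.1 and LHCB2.2. Probe sequences were not used here, so how far each probe also takes up RNA of its copies is not known, and values of single copies are uncertain.

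The 6 LHCA genes had a median of -0.14, with 4 lower and none higher. LHCA1 to LHCA4 form the antenna belt of photosystem I, and LHCA5 and LHCA6 are minor members that link photosystem I to the chloroplast NADH dehydrogenase-like complex. LHCA3 (AT1G61520) read -0.75 and -0.92 in Cy3 and 0.41 and 0.30 in Cy5, and its genotype ratio was -0.24 ± 0.04 (SE, n = 4 arrays, limma adjusted p = 0.00545), 1.18-fold lower. LHCA1 (AT3G54890) read -0.82 and -0.78 in Cy3 and 0.50 and 0.44 in Cy5, for -0.16 ± 0.03 (limma adjusted p = 0.0101). Both genes changed sign with the dye on every array. LHCA5 (AT1G45474) was less affected, at -0.30 and -0.28 in Cy3 and -0.09 and 0.04 in Cy5, for -0.16 ± 0.04 (limma adjusted p = 0.0159), and its other probe gave -0.15. LHCA6 (AT1G19150), which is shown for its pattern, read -0.02 and 0.06 in Cy3 and -0.23 and -0.29 in Cy5, for -0.12 ± 0.03 (limma adjusted p = 0.0313). Its dye effect was negative, at -0.14, while that of the other 5 LHCA genes was positive. LHCA2 and LHCA4 did not pass, and LHCA4 stood at -0.07 ± 0.03. The LHCA median kept its sign under all 17 alternatives, and so did that of LHCB. None of the 6 LHCA genes passed with the processed signals, with either form of the series values or with no dye term. Only 1 was lower without replicate 1, and likewise without replicate 3.

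Of the 10 tested photosystem I genes, 1 passed, against 29.8% of all genes. PSAG (AT1G55670), which encodes a membrane subunit at the antenna side, read -0.70 and -0.57 in Cy3 and 0.29 on replicate 4, with no ratio on replicate 2, and its genotype ratio was -0.17 ± 0.05 (SE, n = 3 arrays, limma adjusted p = 0.0348). The call of PSAG held in 7 of the 14 alternatives that tested it. The number of photosystem I genes lower ran from 0, in the processed signals among others, to 4 with median centring. The median of the group was -0.58 in Cy3, 0.40 in Cy5 and -0.04 for the genotype, and the last turned positive in 3 alternatives, which were the processed signals (0.02), the deposited series values (0.08) and the narrower loess span (0.01). PSAD1 (AT4G02770), a subunit of the ferredoxin docking site, read -0.75 and -0.61 in Cy3 and 0.40 and 0.58 in Cy5, for -0.10 ± 0.04 (limma adjusted p = 0.133). PSAH2 (AT1G52230), a subunit at the docking site of mobile LHCB trimers, had the smallest shift with dye of the group, at -0.02 and 0.01 in Cy3 and 0.21 on replicate 2, for 0.10 ± 0.04 (limma adjusted p = 0.106). PSAK had the largest, with -0.85 and -0.70 in Cy3 against 0.74 and 0.95 in Cy5, and a genotype ratio of 0.03 ± 0.05. Thus the gene of this group with the widest split between orientations had a genotype ratio within its error of 0. PSAK is given array by array outside the rule for named genes, after its values were seen. The remaining genes, PSAD2, PSAE1, PSAF, PSAH1, PSAN and PSAO, lay between -0.07 and 0.05. With outlier-marked spots kept, PSAL came to 0.03 ± 0.03 (limma adjusted p = 0.558) and PSAH2 passed as higher.

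Among the 9 tested photosystem II genes 3 were lower and none was higher, with a median of -0.06 that turned positive in the series values as deposited (0.07). All genes had a median of 0.07 in those values. PSBO2 (AT3G50820), one of the genes for the protein that shields the manganese cluster of water splitting, read -0.42 on replicate 3, -0.24 on replicate 2 and -0.08 on replicate 4, with no ratio on replicate 1. It was below 0 in both orientations, and its genotype ratio was -0.29 ± 0.05 (SE, n = 3 arrays, limma adjusted p = 0.00736), 1.22-fold lower. PSBO1 (AT5G66570), the other gene for that protein, read -0.77 and -0.73 in Cy3 and 0.53 and 0.42 in Cy5, for -0.14 ± 0.04 (limma adjusted p = 0.0239). PSBR (AT1G79040), which encodes a lumenal protein near the water-splitting site, read -0.96 and -1.03 in Cy3 and 0.61 and 0.69 in Cy5, for -0.17 ± 0.03 (limma adjusted p = 0.00967). PSBO1 and PSBO2 therefore shared a lower genotype ratio and differed in how their single arrays moved with the dye. PSBP1, PSBQ1 and PSBQ2, which encode the other extrinsic proteins of that site, lay between -0.05 and 0.02. PSBS, the protein needed for fast quenching of excess light energy, stood at -0.08 ± 0.04 (limma adjusted p = 0.115), and PSBW and PSBX at -0.06 ± 0.04 and -0.05 ± 0.04. With outlier-marked spots kept, PSBY was at -0.08 ± 0.04 (limma adjusted p = 0.164).

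The 4 RBCS genes did not pass, and of the 6 role groups they had the smallest median dye effect (0.09). RBCS1A (AT1G67090) read -0.28 and -0.08 in Cy3 and -0.08 on replicate 4, for -0.13 ± 0.05 (SE, n = 3 arrays, limma adjusted p = 0.117). RBCS3B (AT5G38410) read -0.21 and -0.04 in Cy3 and -0.01 and 0.01 in Cy5, for -0.06 ± 0.04 (limma adjusted p = 0.278). RBCS1B (AT5G38430) read -0.24 and -0.02 in Cy3 and 0.05 and 0.17 in Cy5, for -0.01 ± 0.05 (limma adjusted p = 0.878). In each of them replicate 1 was the lowest array, as it was in RBCS2B. Their median was -0.16 in Cy3, 0.06 in Cy5 and -0.04 for the genotype, and the last turned positive in 5 alternatives, from 0.01 with the processed signals or the narrower loess span to 0.11 with the deposited series values, by way of 0.02 after these were centred and 0.03 when replicate 1 was left out.

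The 5 genes of electron carriers and ATP synthase did not pass either. PETC (AT4G03280), the Rieske protein of the cytochrome b6f complex, read -0.17 and -0.11 in Cy3 and -0.10 and 0.08 in Cy5, for -0.07 ± 0.04 (SE, n = 4 arrays, limma adjusted p = 0.195). ATPC1 (AT4G04640), the gamma subunit of ATP synthase, read -0.28 and -0.21 in Cy3 and 0.40 and 0.32 in Cy5, for 0.06 ± 0.03 (limma adjusted p = 0.24). PETE2 (AT1G20340), a plastocyanin gene, read -0.46 and -0.51 in Cy3 and 0.44 and 0.39 in Cy5, for -0.03 ± 0.03 (limma adjusted p = 0.451). In ATPC1 and PETE2 the sign followed the dye on every array, at similar size in both orientations. PETE1, the other plastocyanin gene, and ATPD, the delta subunit of ATP synthase, had dye effects of 0.10 and 0.17.

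Among the photosynthesis genes, the brighter ones had larger dye effects. Across the 48 genes it correlated with the mean log2 signal at r = 0.81 (Spearman's rho = 0.83), and across the 290 other genes whose 8 values all came from the low-gain pass at r = 0.70 (rho = 0.62). These are descriptions across genes that share arrays, dyes and the scan setting. Among other genes below a mean log2 signal of 16, the median dye effect stayed between -0.01 and 0.01 in each brightness range. At 16 and above there were 39 photosynthesis genes and 115 other genes. In this range 13 of the 39 photosynthesis genes were lower (33.3%) and none was higher, while 41 of the 115 other genes were lower (35.7%) and 20 were higher (17.4%). The share of lower genes was thus similar among other genes at 16 and above. The median genotype ratio was -0.07 for the photosynthesis genes and -0.06 for the others. The dye effect had a median of 0.43 in the former, positive past the threshold in 33 of 39, and of 0.19 in the latter, positive in 68 of 115. The medians over the Cy3 arrays were -0.48 and -0.24, and those over the Cy5 arrays 0.36 and 0.14. Of the 115 other genes, 16 belong to the further lists below, and among the 99 that do not, 37 were lower and 20 higher. Taking instead the genes whose 8 values all came from the low-gain pass, 14 of 42 photosynthesis genes were lower and 0 higher. Their median genotype ratio was -0.065. Of the 290 other genes of that kind, 64 were lower and 55 higher, with a median of 0.004. The part of brightness and of the low-gain scaling in the genotype ratios was not tested.

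**Figure D3:**
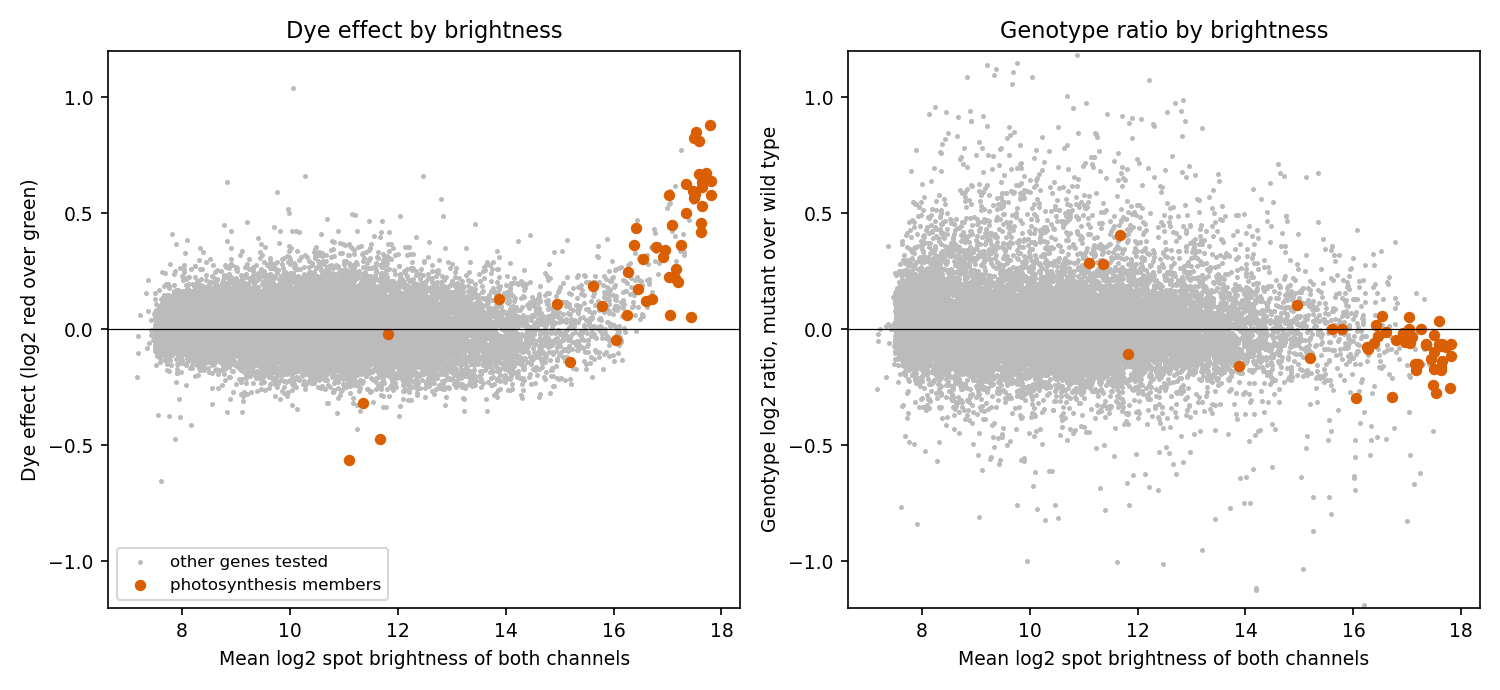
Dye effect (log2 red over green) and genotype ratio (log2 mutant over wild type) against mean log2 signal, for the photosynthesis genes (coloured) and all other tested genes (grey, with 15 beyond the genotype axis at 1.2). The 39 photosynthesis genes at 16 and above have a median dye effect of 0.43, and the 4 genes between 10 and 12 have one of -0.39.

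Genes of neighbouring pathways were counted in the same fit, against the 13.1% of all genes lower and 16.6% higher. In chlorophyll synthesis 9 of 22 genes were lower and none was higher, with a median of -0.11. This median kept its sign under all 17 alternatives, with the number of genes lower from 0 in the series values as deposited to 11 with outlier-marked spots kept. GSA1, the glutamate semialdehyde aminotransferase at the start of tetrapyrrole synthesis, read -0.25 and -0.23 in Cy3 and -0.12 and -0.16 in Cy5, for -0.19 ± 0.03 (SE, n = 4 arrays, limma adjusted p = 0.00466). All 4 arrays of GSA1 were below 0. LIL3:1, a light-harvesting-like protein, stood at -0.28 ± 0.04 on 3 arrays (adjusted p = 0.00571), GUN4, the activator of magnesium chelatase, at -0.17 ± 0.03 (adjusted p = 0.0105) and HEME2, a uroporphyrinogen decarboxylase, at -0.15 ± 0.03 (adjusted p = 0.012). GUN4 changed sign with the dye, at -0.43 and -0.36 in Cy3 and 0.03 and 0.10 in Cy5, while LIL3:1 and HEME2 were below 0 on every measured array. The list had a median of -0.19 over the Cy3 arrays and -0.06 over the Cy5 arrays, so it was negative in both orientations, unlike that of the photosynthesis genes.

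Of 17 tested Calvin cycle genes 5 were lower and none was higher. In 12 of the 17 all 8 values came from the low-gain pass. Among other genes, 19.1% were lower at a mean log2 signal of 14 to 16 and 35.7% at 16 and above. The part of brightness in the calls of this list was not tested. The list had a median of -0.08 that turned to 0.05 in the series values as deposited. All genes had a median of 0.07 in those values. FBA1, a plastid aldolase, read -0.34 and -0.10 in Cy3 and -0.39 and -0.41 in Cy5, for -0.31 ± 0.04 (SE, n = 4 arrays, limma adjusted p = 0.00227). All 4 arrays were negative, and both Cy5 arrays lay below both Cy3 arrays. FBA2 (-0.21), HCEF1 (-0.14), GAPA (-0.16) and RCA (-0.15), which encode another aldolase, a fructose bisphosphatase, a glyceraldehyde phosphate dehydrogenase and Rubisco activase, passed as lower as well. Unlike FBA1, they were negative on every measured Cy3 array and positive on every measured Cy5 array. Their means were -0.80 and 0.39 for FBA2, -0.39 and 0.11 for HCEF1, -0.38 and 0.05 for GAPA, and -0.56 and 0.26 for RCA. RCA is named outside the rule for named genes, because the list had few calls. Of 26 tested genes of electron transfer and photoprotection 8 were lower and none was higher, with a median of -0.09. FD1, a ferredoxin, read -1.04 and -0.67 in Cy3 and -0.01 and 0.02 in Cy5, for -0.42 ± 0.06 (limma adjusted p = 0.00201). Both Cy3 arrays were low and both Cy5 arrays near 0, and its dye effect was 0.43. PGR5, which takes part in cyclic electron flow, stood at -0.22 ± 0.03, LHCB7 at -0.18 ± 0.03 and STN7, the kinase of state transitions, at -0.16 ± 0.03.

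Among 12 regulators of photosynthesis genes 4 were lower and 2 were higher, with a median of -0.01 that turned to 0.06 in the series values as deposited. All genes had a median of 0.07 in those values. GLK1 and GLK2, transcriptional activators of antenna and chlorophyll genes, stood at -0.23 ± 0.04 and -0.21 ± 0.05 (SE, n = 4 arrays, limma adjusted p = 0.00656 and 0.0142). GLK1 read -0.37 and -0.25 in Cy3 and -0.06 and -0.23 in Cy5, and GLK2 read -0.43 and -0.18 in Cy3 and -0.07 and -0.15 in Cy5. Both were below 0 on every array, and their dye effects, 0.08 and 0.10, did not pass. PIF1, a phytochrome-interacting factor, was at -0.22 ± 0.03 (adjusted p = 0.00376) and BBX21, a B-box factor of seedling greening, at 0.21 ± 0.04 (adjusted p = 0.00446). CGA1 was the other lower gene (-0.15) and PIF3 the other higher one (0.14), both named after their values were seen.

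Markers of root tissue were counted in the same fit. Of 15 root markers, all well above background in all 8 channels and none at 0, 9 were higher in the mutant and 1 was lower, with a median of 0.22. Over the Cy3 arrays it was 0.23, and over the Cy5 arrays 0.26. In the processed signals their summed level lay between 14162 and 16978 units in the mutant and between 12840 and 14380 in wild type, and the mutant was above wild type on all 4 arrays. CASP1, a membrane protein of the Casparian strip, stood at 0.48 ± 0.03, WER, a MYB factor of root epidermis, at 0.40 ± 0.04 and EXPA18, a root hair expansin, at 0.35 ± 0.04. SHR was the 1 marker that was lower (-0.16), and is named after its value was seen. The median of the root list was positive under all 17 alternatives, from 0.17 without replicate 3 to 0.45 in the series values as deposited. The part of root tissue in the ratios of the photosynthesis genes was not tested.

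**Figure D4:**
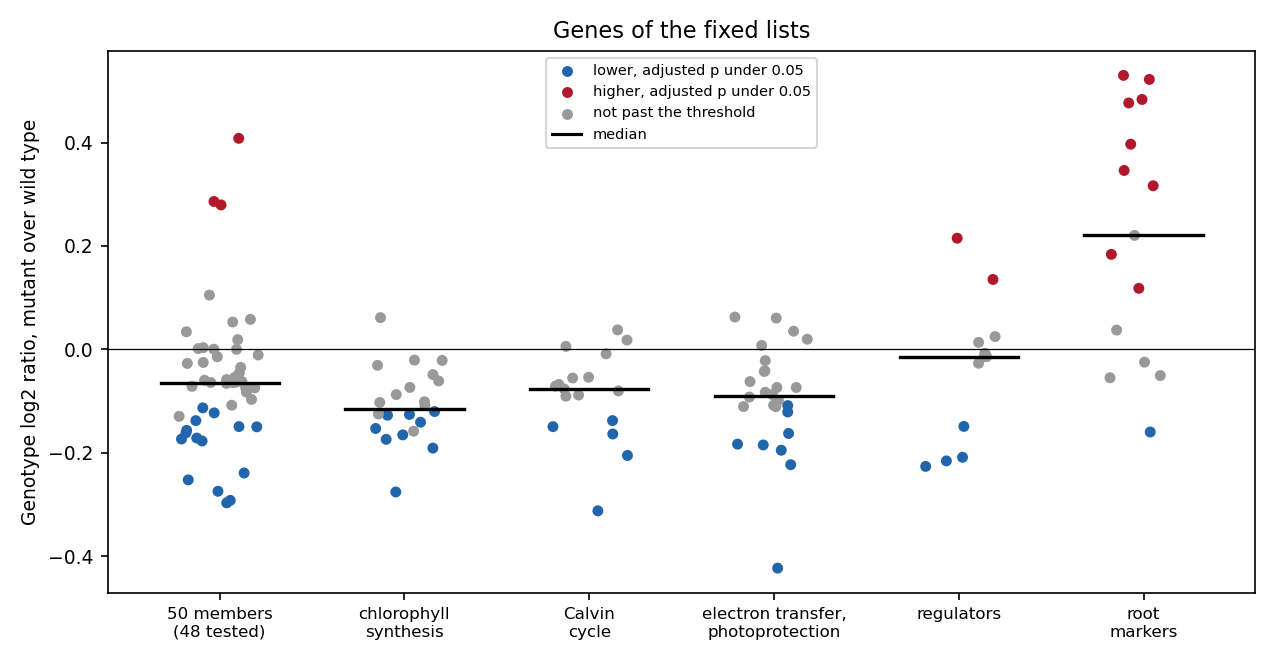
Genotype log2 ratio of each tested gene in 6 lists, with the median as a line. The photosynthesis genes have a median of -0.06 with 15 lower and 3 higher, the next 3 lists have medians of -0.11, -0.08 and -0.09 with no gene higher, and the root markers have a median of 0.22. In the series values as deposited the medians of the photosynthesis, Calvin cycle and regulator genes turned positive, and that of all genes was 0.07.

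**Figure D5:**
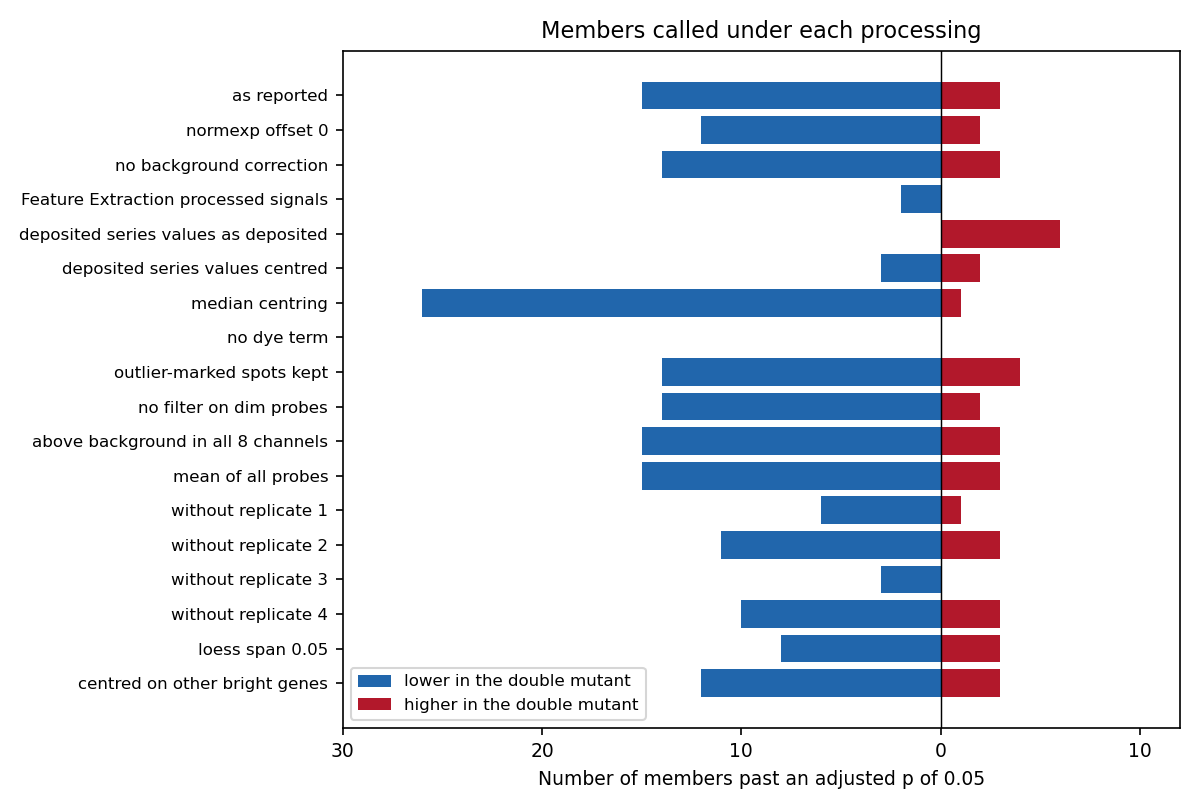
Number of photosynthesis genes lower and higher in the double mutant at a limma adjusted p under 0.05, as reported and under each of 17 alternatives. The count of lower genes runs from 0 to 26 and that of higher genes from 0 to 6.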

How the data were processed

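Per the submitters' processing notes, the 2-colour Agilent scans were read with Feature Extraction 9.1.3.1. The spot and background values are deposited median intensity values in arbitrary units, without normalization, per the file headers. That software also wrote processed signals (background subtracted, dyes normalized) and a log10 ratio, red over green, among the deposited columns. Set against the scanner ratios (absolute r of 0.987 to 0.999), the deposited series values proved to be natural log ratios, mutant over wild type. Their medians were 0.0458, 0.0813, 0.107 and -0.0011 for replicates 1 to 4, and no source used here says how they were centred. The genome build was not named, so no coordinates are given. All arrays shared 1 slide, so slide could not be tested as a batch.

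Background was corrected with normexp (offset 50), and ratios were normalized by loess (span 0.3), with controls at weight 0 and outlier-marked spots left out. Probes well above background in all 4 channels of a genotype and with at least 3 ratios were kept, the brightest per gene. Log2 red over green was fitted in limma 3.58.1 with a gene-wise dye effect and genotype, then eBayes and Benjamini-Hochberg adjustment over 19314 genes, two-sided, at 0.05. Errors are standard errors of this fit. Fold changes are powers of 2 of these ratios, and normexp draws them towards 1 for dim probes. The scripts were tested on simulated data.

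The photosynthesis genes and all lists were chosen with earlier results of these data known. Of the 96 genes in the other lists, 92 carried the listed name in RefSeq. TKL1 lacked ratios and NDHM had no probe. Arrays are given one by one for the 3 genes of smallest p in each of 6 role groups, and up to 4 genes per other list are named by smallest p among those past the threshold. One gene that this rule names is not reported here.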

Additional observations from a re-analysis of the deposited data

How the results depend on the processing

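The counts rest on the normalization and on single arrays. The cause of each change given here was not tested. In the processed signals 2 photosynthesis genes were lower and 0 higher, the dye effect passed for 0 in either direction, 1 Calvin cycle gene and 5 electron transfer genes were lower, 1 regulator was higher and 0 root markers were lower. In the series values as deposited these were 0 and 6, 0 for dye, 1 Calvin cycle and 2 electron transfer genes lower with 1 higher, 0 chlorophyll genes and 1 regulator lower, and 0 root markers lower. After centring they were 3 and 2, 0 for dye, 1 Calvin cycle, 1 chlorophyll and 4 electron transfer genes lower, 1 regulator higher and 0 root markers lower. Median centring gave 26 and 1, with 1 negative dye effect, 8 Calvin cycle genes lower, 0 regulators higher and 0 root markers lower. Without the dye term there were 0 and 0, with 1 Calvin cycle, 2 chlorophyll and 1 electron transfer gene lower, 1 regulator each way and 0 root markers lower. A normexp offset of 0 left 1 negative dye effect, and the loess span of 0.05, chosen after seeing the data, gave 8 genes lower and 23 positive dye effects. Leaving out 1 replicate at a time gave 3 to 11 photosynthesis genes lower and 0 to 3 higher, 19 to 31 positive and 0 to 4 negative dye effects, 1 to 5 Calvin cycle, 2 to 9 chlorophyll and 3 to 7 electron transfer genes lower, 1 to 4 regulators lower and 1 to 2 higher, and 7 to 10 root markers higher and 0 to 2 lower. Among all genes called, the share that was higher was 55.8%, and it was 45.5% with median centring, 79.9% in the series values as deposited, 68.0% without the dye term and 62.5% and 65.5% without replicates 1 and 3. Centring on other bright genes, also chosen after seeing the data, gave 12 lower and 3 higher.

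Signs were followed for the 18 photosynthesis genes that passed and for 8 named by smallest p that did not. They turned for LHCB6, to 0.00087 with the processed signals and 0.082 with the series values as deposited, and for all 8 of the latter. With the processed signals PETE2 came to 0.027, RBCS3B to 0.010 and RBCS1B to 0.013. With the series values as deposited PETE2 came to 0.11, RBCS1A to 0.12, PSAD1 to 0.033, PETC to 0.057, RBCS3B to 0.092 and RBCS1B to 0.094. All genes had a median of 0.066 in those values. After centring PETE2 was at 0.024, RBCS1A at 0.040, RBCS3B at 0.0076 and RBCS1B at 0.0098. With median centring PSAH2 was at -0.0099 and ATPC1 at -0.098. The narrow span gave 0.011 for PETE2 and 0.029 for RBCS1B, and centring on other bright genes 0.00061 for RBCS1B, which ran from -0.067 to 0.045 as single replicates were left out. The ratio within each array already pairs the genotypes of a replicate, so there was no further replicate block to fit. The 4 arrays leave 2 residual degrees of freedom for a gene with 4 ratios, and fewer for the 14 tested photosynthesis genes with 3 ratios.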
